A study of Mus musculus with 18 samples.

Results

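The gene expression of 2 mouse embryonic stem cell lines was compared 48 h after withdrawal of LIF, the leukaemia inhibitory factor added to culture medium to prevent their differentiation. The Oct4 VP2 line carries a moct4-vp16 construct and the Oct4 line a moct4 construct. The comparison took every array that the labels title "Oct4 VP2" or "Oct4" without LIF at 48 h, 2 arrays of each and 4 of the 18 arrays in all, and every probe that is not a control, 42006 in number. A probe was tested when it was well above background in the sample channel on all arrays of any 1 of the 9 groups (2 arrays a group), which left 31728.

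Both lines derive from ZHBTc4, a 129/Ola embryonic stem cell line whose tetracycline-regulated Oct4 transgene was switched off with tetracycline before the constructs were introduced by electroporation, with integration at random and under puromycin selection. Cells of both lines were plated with LIF, tetracycline and puromycin at 2 ug/ml, LIF was removed 24 h after plating, and RNA was taken 48 h later. The labels give 250000 plated cells per flask for Oct4 VP2 and 200000 for Oct4, so plating density and line cannot be told apart. The series describes the 2 replicates of each line as independent clones. The p-values rest on a spread between replicate arrays pooled over all 9 groups, ZHBTc4 included. Arrays of a line at different times were taken as independent. The p-values therefore do not measure the spread between clones of these 2 lines alone. Further groups used here were the arrays titled Oct4 VP2 and Oct4 at 120 h without LIF and at 24 h with LIF, and ZHBTc4 itself at 48 h without LIF, for which the labels mention neither tetracycline nor puromycin. For Oct4 with LIF the labels also omit both agents and give a knock-in in place of random integration, so whether those arrays hold the same Oct4 clones is not settled by the labels.

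Oct4, encoded by Pou5f1, is a POU-family transcription factor on which pluripotency depends, and embryonic stem cells that lose it turn towards trophoblast. LIF acts through its receptor and Stat3 to hold mouse embryonic stem cells undifferentiated. VP16 is a viral transcription factor whose acidic domain strongly activates transcription, and a fusion of it to a DNA-binding protein is used to activate that protein's targets. Each array held sample RNA labelled with Cy3 and a common mouse reference RNA labelled with Cy5, and every value below is log2 of sample over reference unless stated otherwise.

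The probe identifiers are design numbers without gene names, so the probe sequences carry the identity of most results. The 4 probes with the largest differences, 2 in each direction, are shown because they mark the ends of the distribution, with capitals for the hexamer AATAAA, the common polyadenylation signal.
Z00035453-1: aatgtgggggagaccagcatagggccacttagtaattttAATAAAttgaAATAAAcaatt
Z00047092-1: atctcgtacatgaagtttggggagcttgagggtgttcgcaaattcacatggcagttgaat
Z00042672-1: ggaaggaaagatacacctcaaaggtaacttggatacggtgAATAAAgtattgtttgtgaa
Z00039143-1: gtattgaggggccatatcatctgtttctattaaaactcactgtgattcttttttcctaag
The first 2 were higher in Oct4 VP2 and the last 2 lower.

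Some probes overlap in sequence, and pairs of probes that share a run of bases give a second reading from other spots of the same array. The pairs below are shown because both members passed the test, with the shared run in capitals. They are the pair with the largest fitted difference and, among the pairs well above background on all 4 arrays, the second by size of the higher ones, which differed from both other times, and the first of the lower ones. Outside that limit, 2 lower pairs had larger fitted differences than lower pair 1.
Largest pair, probe a: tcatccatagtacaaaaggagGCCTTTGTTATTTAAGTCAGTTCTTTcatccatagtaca
Largest pair, probe b: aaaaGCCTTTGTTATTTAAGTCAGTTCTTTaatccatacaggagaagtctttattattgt
Higher pair 2, probe a: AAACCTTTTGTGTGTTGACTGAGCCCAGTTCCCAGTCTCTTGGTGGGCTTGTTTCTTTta
Higher pair 2, probe b: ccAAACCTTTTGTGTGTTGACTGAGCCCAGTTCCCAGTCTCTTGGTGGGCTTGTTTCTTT
Lower pair 1, probe a: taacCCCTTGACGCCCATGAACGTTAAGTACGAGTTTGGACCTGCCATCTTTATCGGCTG
Lower pair 1, probe b: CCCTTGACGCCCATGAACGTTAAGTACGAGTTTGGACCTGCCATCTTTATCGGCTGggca

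The lines differed over a wide set of transcripts at 48 h. Of the 31728 probes tested, 1653 were higher and 1570 lower in Oct4 VP2 (called by limma, with an adjusted p under 0.05 by Benjamini-Hochberg and a minimum of 2-fold), which is 10.2% of the probes, 5.21% higher and 4.95% lower. The median difference was 1.63 among the probes called higher and -1.63 among those called lower. At 4-fold or more there were 570 called higher and 487 lower, at 16-fold or more 57 and 33, and at 32-fold or more 21 and 8. Over all probes tested, the 25th and 75th percentiles of the difference were -0.34 and 0.33, the 1st percentile was -2.34 and the 99th was 2.56. With normexp background correction and loess normalisation in place of the scanner software's processed signals, 1046 probes were called higher and 892 lower, and 1678 of these 1938 were also called from the processed signals.

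**Figure D1:**
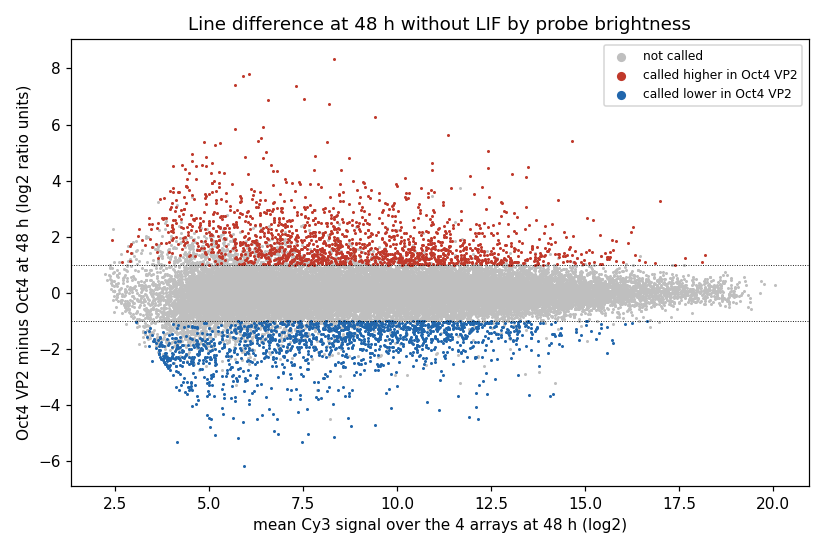
Each point is a probe tested, with its mean Cy3 signal over the 4 arrays at 48 h (log2) on the x axis and the difference Oct4 VP2 minus Oct4 (log2) on the y axis; the dotted lines mark a 2-fold difference, and the 10 probes without a value on all 4 arrays are not drawn. Called probes, 1653 higher and 1570 lower, lie on both sides of 0 along most of the range of brightness and thin out at its bright end.

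The called probes were spread over the range of brightness. Over 4 equal bins from the dimmest to the brightest, 4.80%, 6.81%, 5.84% and 3.39% were called higher and 5.64%, 5.83%, 5.92% and 2.42% lower. All 4 arrays were well above background at 2572 of the 3223 called probes, 1399 higher and 1173 lower. A further 128 probes called higher were well above background on both Oct4 VP2 arrays and on neither Oct4 array, out of 191 tested probes with that pattern. The mirror pattern, on both Oct4 arrays and neither Oct4 VP2 array, held at 1261 tested probes, of which 285 were called lower. Detection was itself unequal, with 67.0% and 71.0% of probes well above background on the Oct4 VP2 arrays and 75.2% and 73.0% on the Oct4 arrays. Where a spot is not significant against its background the scanner software writes a substitute value, and 490 of the called probes held at least 1 of these on the 4 arrays. With only the 24859 probes well above background in both channels on all 4 arrays, 1254 were called higher and 1188 lower.

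The 2 replicates of a line agreed more closely with each other than the lines did. The difference between replicates had an SD of 0.49 over the probes for Oct4 VP2 and 0.47 for Oct4, with r = 0.968 in each, against an SD of 0.83 for the difference between the lines. All 3223 called probes had no overlap between the 2 and 2 arrays, a pattern held by 62.4% of all tested probes with 4 values. Both Oct4 VP2 arrays lay on slide 1 and both Oct4 arrays on slide 2 of the same scan session, so slide and line cannot be told apart at 48 h. Tested on the reference channel alone (Cy5), the same comparison called 95 probes, 0.299% of those tested, 68 higher and 27 lower, and 23 of the 95 were also called in the ratio. The difference in that channel had an SD of 0.35. There 2571 probes had an unadjusted limma p under 0.05, against 9929 in the ratio. An exact permutation test of a single probe with 2 against 2 arrays cannot give a two-sided p below 0.333, which is why the spread was pooled over all 18 arrays.

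Probe Z00035453-1 had the largest fitted difference. It read 3.43 and 3.45 on the Oct4 VP2 arrays and -4.52 and -5.26 on the Oct4 arrays, a fitted difference of 8.33 ± 0.46 (SE; adjusted p = 6.6e-06). Only 1 of the 2 Oct4 arrays was well above background there, so no fold is given, while ZHBTc4 at 48 h read -2.23 and -0.79, between the other lines. With LIF it read 3.47 and 4.08 in Oct4 VP2 and -1.62 and -2.10 in Oct4, a difference of 5.63 ± 0.46 (adjusted p = 5.5e-05) that rests on the Oct4 arrays with the knock-in label.

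Probe Z00047092-1 read -0.16 and -0.01 in Oct4 VP2 and -8.26 and -7.53 in Oct4, where neither array was well above background and 1 held a substitute Cy3 value. The difference was at least 59.5-fold, a bound computed on log2 Cy3 signals normalised between arrays. The adjusted p (0.00057) is that of the limma test on the ratios. For the bound, the mean of the bright group was set against the mean of the other group. There each array took the higher of the probe's own signal and its lowest signal well above background. The bound was 26.1-fold with LIF and 37.2-fold at 120 h, so this probe was bright in Oct4 VP2 and dim in Oct4 at every time. With LIF this rests on the Oct4 arrays with the knock-in label. These bounds belong to the main settings. Over the other settings run, the 48 h log2 difference lay between 2.79 and 8.17.

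The 2 lowest probes gave the reverse picture. Z00042672-1 read -6.03 and -6.54 in Oct4 VP2, not well above background, against -0.08 and -0.17 in Oct4, at least 18.7-fold lower (adjusted p = 0.0012). On 1 Oct4 VP2 array its Cy3 signal is a substitute value. Over the other settings run, its log2 difference lay between -6.41 and -2.02, so the bound belongs to the main settings. ZHBTc4 read -1.22 and -0.69 at this probe, above Oct4 VP2 and below Oct4. Z00039143-1 read -6.05 and -5.93 in Oct4 VP2, where 1 of 2 arrays was well above background, and -0.50 and -0.82 in Oct4, a difference of -5.33 ± 0.90 (adjusted p = 0.0023). Leaving out any 1 of the 4 arrays kept all 4 of these probes past both thresholds.

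**Figure D2:**
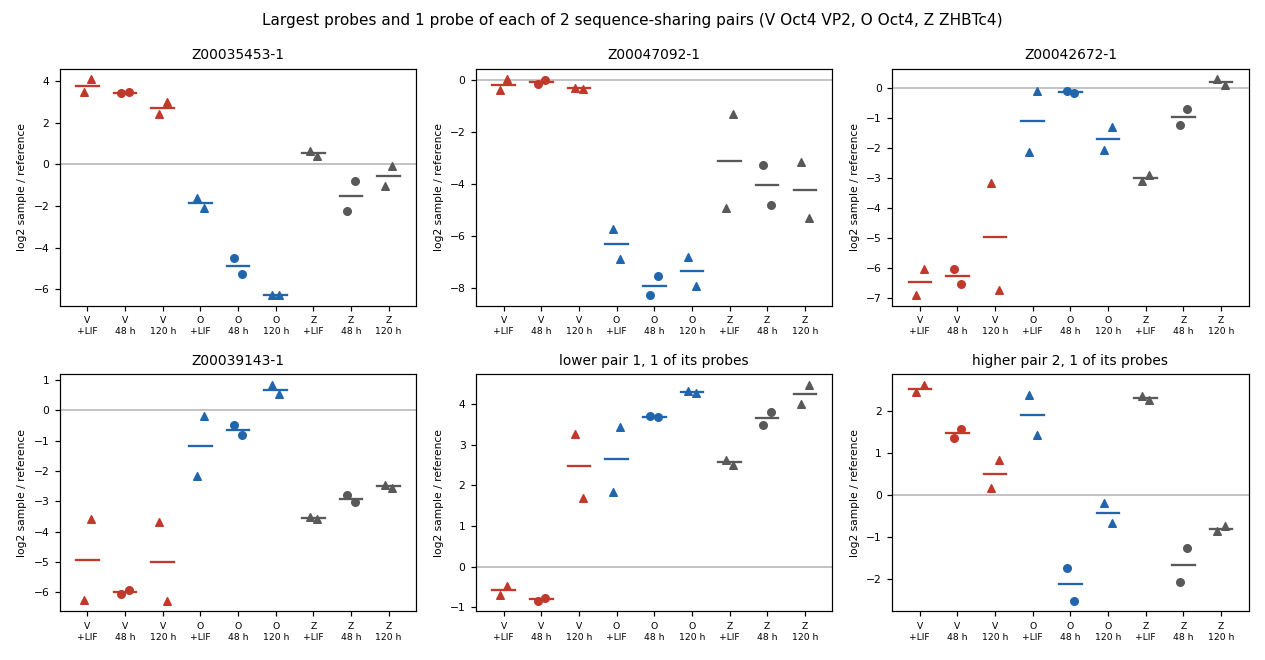
Log2 of sample over reference (y axis) in both replicates of each line and time (x axis; V Oct4 VP2, O Oct4, Z ZHBTc4; +LIF is the 24 h culture with LIF, the other times are without LIF), with circles for 48 h, triangles for other times and a bar at the mean of the 2 arrays. The first 4 panels are the largest probes, of which Z00035453-1 read 3.43 and 3.45 in Oct4 VP2 against -4.52 and -5.26 in Oct4 at 48 h, and the last 2 panels are probe a of lower pair 1 and of higher pair 2.

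Probes that share sequence mostly gave similar differences. Among tested probes, 1062 pairs share a run of at least 25 bases, 21 of them over all 60, and the median gap between the 2 differences of a pair was 0.18 (0.16 where the sequence was identical). Most probes differed little between the lines, so a small gap alone says little, and the largest gap between identical sequences was 1.1 (log2). Both probes were called in 84 pairs, 44 higher and 40 lower, and in all 84 the direction was the same. In 35 pairs only 1 probe was called, and in 34 of these the other had the same sign. Over the 1062 pairs Pearson's r was 0.861, given as a description, since the pairs share arrays, clones and often a transcript.

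**Figure D3:**
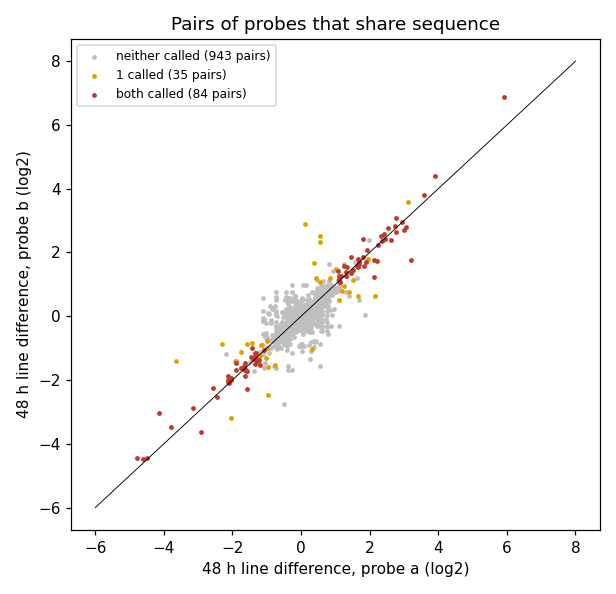
Each point is a pair of probes that share at least 25 bases, with the 48 h difference Oct4 VP2 minus Oct4 (log2) of the first probe on the x axis and of the second on the y axis, and a line where the 2 are equal. The 84 pairs with both probes called lie in the upper right (44 higher) and the lower left (40 lower).

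In the largest pair, probe a read 5.93 and 4.23 in Oct4 VP2 and -0.44 and -1.21 in Oct4, and probe b read 7.03 and 7.12 against 0.98 and -0.61. Both Oct4 VP2 ratios of probe b have a substitute value in the reference channel. At each probe 1 Oct4 array holds a substitute Cy3 value. No Oct4 array was well above background at either probe, so the difference was at least 51.9-fold for probe a (adjusted p = 0.00071) and at least 57.0-fold for probe b (adjusted p = 0.00011). These bounds belong to the main settings. Over the other settings run, the log2 difference was as small as 2.42 at probe a and 2.79 at probe b. Neither ZHBTc4 array at 48 h was well above background at either probe. Signal for this pair was seen in Oct4 VP2 also with LIF (5.14 and 4.22 at probe a) and at 120 h (5.20 and 2.50).

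Higher pair 2 separated the lines at 48 h more than at the other times, and it was shown for that reason. The p-values of its changes between times are therefore those of a pair chosen for them. Probe a read 1.35 and 1.57 in Oct4 VP2 and -1.73 and -2.50 in Oct4, a difference of 3.58 ± 0.37 (adjusted p = 0.00016), and probe b differed by 3.79 ± 0.35 (adjusted p = 7.9e-05). With LIF the difference at probe a was 0.63 ± 0.37 and at 120 h it was 0.93 ± 0.37. The value with LIF rests on the Oct4 arrays with the knock-in label, from the other scan session. The 48 h difference exceeded that with LIF by 2.95 ± 0.53 at probe a (adjusted p = 0.026) and by 3.19 ± 0.50 at probe b (adjusted p = 0.015). From 48 h to 120 h the line difference fell by 2.65 ± 0.53 at probe a (adjusted p = 0.0096) and by 2.98 ± 0.50 at probe b (adjusted p = 0.0043). ZHBTc4 at 48 h read -2.06 and -1.27 at probe a, a range that overlaps that of Oct4. With LIF, ZHBTc4 read 2.34 and 2.24 there and Oct4 2.37 and 1.42, so both lines were higher with LIF than at 48 h. At probe a of the higher pairs ranked 1 and 3 by size under the same limit, neither change passed the limma test. The 48 h difference minus that with LIF was -0.22 ± 1.29 for rank 1 and 0.41 ± 0.41 for rank 3. The change from 48 h to 120 h was 2.12 ± 1.29 and 0.63 ± 0.41. The lowest adjusted p of these was 0.33. Neither Oct4 array at 120 h was well above background for rank 1.

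Lower pair 1 was low in Oct4 VP2 against both other lines at 48 h. Probe a read -0.84 and -0.78 in Oct4 VP2, 3.71 and 3.67 in Oct4 and 3.50 and 3.80 in ZHBTc4, and the difference between Oct4 VP2 and Oct4 was -4.50 ± 0.50, or 22.6-fold lower (adjusted p = 0.00023). Probe b differed by -4.44 ± 0.52 (adjusted p = 0.00031). At 120 h Oct4 VP2 read 3.27 and 1.69 at probe a against 4.32 and 4.27 in Oct4. The line difference at probe a was 2.69 ± 0.71 less negative there than at 48 h (adjusted p = 0.031).

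Gene names could be given to few probes. An exact match of the probes to RefSeq windows around gene starts (GRCm38.p6, 250 bases before to 50 after the start) placed 441 probes, and 278 of these lie within 1 gene on their strand, 272 genes in all. Of the placed probes 313 were tested, 192 of them with a gene name (186 genes). A probe placed in this way lies at or beside the start of the window's gene, which need not be the gene named for it, its match was not searched for elsewhere in the genome, and whether it lies in an exon or an intron was not analysed here. Pou5f1 had no placed probe, and of the genes on lists of pluripotency, germ layer, trophoblast and other cell type markers only Acta2 and Pax7 had a tested one. Acta2, an actin of smooth muscle and myofibroblasts, differed by 0.05 ± 0.32 (adjusted p = 0.94), and Pax7, a transcription factor of the neural tube and muscle precursors, by -0.45 ± 0.22 (adjusted p = 0.20). The labelled cell type was therefore not checked against its markers.

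Among the 313 placed probes 12 were called, 3 higher and 9 lower, or 3.83%, against 10.2% of all probes. Of the 192 with a gene name 7 were called, 1 higher and 6 lower, and they belong to 6 genes. The named probes had a median difference of -0.01, near the -0.01 of all probes, with 102 below 0 and 90 above. In bulk RNA, fewer cells of a type and less RNA per cell cannot be told apart for any of these genes.

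The probe for Plet1, which encodes a cell surface protein of the placenta and of epithelial progenitors, lies at chr9:50505002-50505055, plus strand, with the stretch CTACTAGCAGATTTCCACTGTGCCCAGACC; capitals here and for the genes below mark bases that match the genome sequence of the window. It was placed through the start window of Plet1os on the opposite strand and lies within the span of Plet1 on its own strand. It read 0.92 and 1.31 in Oct4 VP2, 2.76 and 2.56 in Oct4 and 4.27 and 4.69 in ZHBTc4 at 48 h, with no overlap between the lines. The difference between Oct4 VP2 and Oct4 was -1.54 ± 0.44, or 2.91-fold lower (adjusted p = 0.032). Plet1 was also lower in Oct4 VP2 with LIF, by -1.47 ± 0.44 (adjusted p = 0.039), and at 120 h, by -3.74 ± 0.44 (adjusted p = 0.00011). The value with LIF rests on the Oct4 arrays with the knock-in label, from the other scan session. The difference at 120 h exceeded that at 48 h by -2.19 ± 0.62 (adjusted p = 0.042). With only the first scan session, or with slide as a random block, the 48 h call was lost. With any 1 of the 4 arrays at 48 h left out, the 48 h difference lay between -1.74 and -1.35 with an adjusted p between 0.079 and 0.16, so the call needed all 4.

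Homer2, a scaffold protein of the synapse, had its probe at chr7:81609876-81609924, minus strand, with the stretch GGCCCTCGGGTGCCTTCTGCTGCGTGGCAT. The match is to the window of Gm44570 on the opposite strand, and the probe lies within the span of Homer2 on its strand. It read 1.01 and 0.82 in Oct4 VP2, 2.44 and 2.35 in Oct4 and 1.83 and 2.23 in ZHBTc4. The Oct4 VP2 arrays were the lowest, by -1.48 ± 0.22 against Oct4 (2.79-fold, adjusted p = 0.0011). The line difference was -1.16 ± 0.22 with LIF (adjusted p = 0.0049) and -0.24 ± 0.22 at 120 h (adjusted p = 0.42), 1.24 ± 0.31 less negative than at 48 h (adjusted p = 0.025). Here too the value with LIF rests on the Oct4 arrays with the knock-in label.

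Adk, which encodes adenosine kinase, the enzyme that turns adenosine into AMP, had its probe at chr14:21052627-21052686, plus strand, with the stretch GAGAGTGTGAAGATGGCAGCTGCGGACGAG. Here the window is that of Ap3m1 on the opposite strand, and the probe lies within the span of Adk on its strand. It read -1.12 and -1.22 in Oct4 VP2, -0.20 and 0.01 in Oct4 and -0.09 and -0.40 in ZHBTc4. Oct4 VP2 was lower than Oct4 by -1.07 ± 0.15 (2.10-fold, adjusted p = 0.00089). Without replicate 2 of Oct4 the difference of Adk was -0.97, just short of 2-fold.

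Rpl38, a protein of the large ribosomal subunit, had 2 overlapping probes on the plus strand of chromosome 11, at chr11:114668526-114668585 and chr11:114668538-114668597. The first contains the stretch TACTCAGTTTCCTCTGTTGGGCGGGGTTAA and the second TCTGTTGGGCGGGGTTAACCGTCCGGAAGC. The second read 1.30 and 1.40 in Oct4 VP2, 2.54 and 2.85 in Oct4 and 2.64 and 2.76 in ZHBTc4, so Oct4 VP2 lay below both other lines. The differences from Oct4 were -1.26 ± 0.23 (adjusted p = 0.0037) and -1.34 ± 0.20 (adjusted p = 0.0011), and since the probes overlap they are not independent. Ribosomal protein genes have many processed copies in the genome, so signal from such copies could not be separated from that of the gene. The other cytosolic ribosomal probes, Fau (-0.63 ± 0.18, adjusted p = 0.03), Rpl10a (-0.29 ± 0.30) and Rps27l (-0.22 ± 0.16), were below 0 but did not reach 2-fold.

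Rasef, which encodes a Rab-family GTPase with calcium-binding EF hands, read -0.09 and -0.07 in Oct4 VP2 and 2.18 and 2.89 in Oct4 at chr4:73790655-73790714 on the minus strand. Both Oct4 VP2 values are substitute values, and so are all 4 of the reference channel. The fitted difference of -2.61 ± 0.41 (adjusted p = 0.0015) therefore becomes at least 1.01-fold against the lowest signal well above background. With normexp and loess it was -0.34, not called.

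Gm14393, a predicted gene at chr2:175067720-175067771 on the minus strand, was the named gene called higher. It read 2.48 and 2.71 in Oct4 VP2, 1.12 and 1.38 in Oct4 and 1.66 and 2.85 in ZHBTc4, where the replicates spanned most of the range between the lines. Another probe of these arrays, which carries no gene name and shares at least 25 bases with it, was also called higher, by 1.56. At the placed probe the difference was 1.34 ± 0.42 (adjusted p = 0.045). Without any 1 of the 4 arrays the adjusted p lay between 0.10 and 0.20, and with normexp and loess the difference was 0.67, not called.

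**Figure D4:**
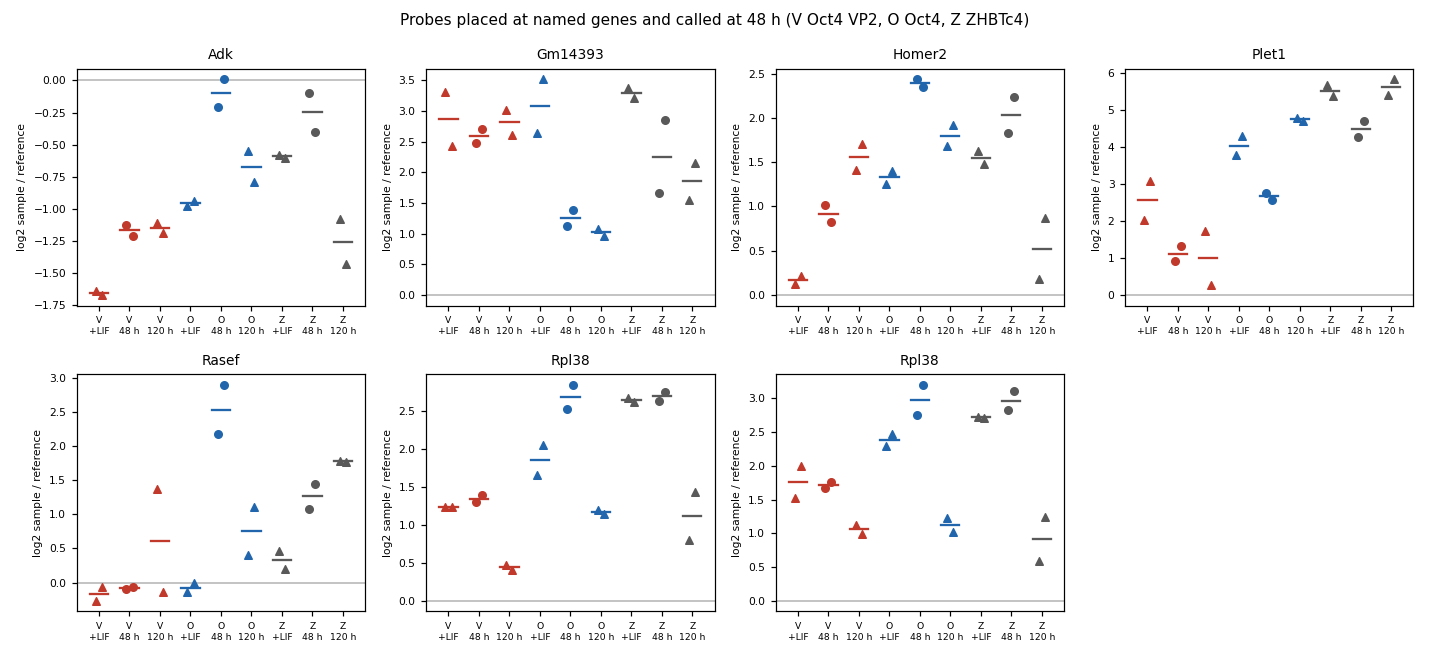
Log2 of sample over reference (y axis) at the 7 probes placed at named genes and called at 48 h, for both replicates of each line and time (x axis; V Oct4 VP2, O Oct4, Z ZHBTc4; +LIF is the 24 h culture with LIF, the other times are without LIF), with circles for 48 h, triangles for other times and a bar at the mean of the 2 arrays. At 48 h the Oct4 VP2 arrays lie below the Oct4 arrays at every probe shown except Gm14393, where they read 2.48 and 2.71 against 1.12 and 1.38; the 2 values of Rasef in Oct4 VP2 are substitute values.

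Further placed probes that do not lie wholly within a gene on their strand were called at or beside 5 genes. A probe opposite to Mettl5, which encodes a methyltransferase of ribosomal RNA, was higher by 1.56 ± 0.48 (adjusted p = 0.043), and the call was lost without any 1 of the 4 arrays (adjusted p between 0.057 and 0.26). A probe opposite to Zfp219, a zinc finger transcription factor, was higher by 1.14 ± 0.25 (adjusted p = 0.0084), and the call was lost without replicate 1 of Oct4 VP2 (0.97, adjusted p = 0.072) or of Oct4 (1.00, adjusted p = 0.07). Neither of these calls held with normexp and loess. The call opposite to Mettl5 was also lost without a filter on dim probes and with only the arrays compared. It was lost as well with slide as a random block and with a replicate block. Just upstream of Pdia2, a protein disulfide isomerase, a probe on that gene's strand was lower by -1.30 ± 0.18 (adjusted p = 7e-04), with 0.44 and 0.57 in Oct4 VP2 against 1.67 and 1.93 in Oct4. Probes at the windows of Gm52042 and Gm50270 were lower by -1.90 ± 0.42 (adjusted p = 0.0089, lost without replicate 2 of Oct4 VP2, at -1.39 with adjusted p = 0.084) and -1.03 ± 0.24 (adjusted p = 0.012, lost without any 1 of the 4 arrays, with adjusted p between 0.051 and 0.068).

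Besides the ribosomal probes, 4 gene families with several named probes were grouped by gene symbol after the values were seen. None of their probes was called, and since 3.65% of all named probes were called, nothing is read from that. The 7 histone probes lay between -0.58 and 0.20, with a lowest adjusted p of 0.37. The 6 olfactory receptor probes lay between -0.30 and 0.39 (lowest adjusted p = 0.29) and the 8 zinc finger probes between -0.57 and 0.30 (lowest adjusted p = 0.059). Of the 4 probes for subunits of respiratory complex I, Ndufa9, at 1.04 ± 0.62 (adjusted p = 0.29), had the largest difference and Ndufb11, at -0.40 ± 0.15, the lowest adjusted p (0.083). The largest named difference that missed the test was that of Lim2, a membrane protein of the eye lens, at 2.04 ± 0.97 (adjusted p = 0.18).

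Many of the probes called at 48 h were also called between the Oct4 VP2 and Oct4 arrays with LIF, of which the Oct4 arrays carry the knock-in label and come from the other scan session. With LIF 1521 probes were called higher and 1329 lower (8.98% of those tested, 4.79% higher and 4.19% lower), from arrays not used at 48 h. These arrays are not unrelated to those at 48 h. The Oct4 VP2 arrays of both times lay on slide 1, and the deviations of same-numbered ones had r = 0.28. How much of the overlap this gives was not tested. Of the 1653 probes called higher at 48 h, 649 were called higher with LIF, which is 39.3% of the 48 h list and 42.7% of the LIF list, and 8 were called in the opposite direction. Of the 1570 called lower, 620 were called lower with LIF (39.5% and 46.7%), and 8 the other way. The median difference with LIF was 0.93 over the 48 h higher list and -0.96 over the lower list, against 0.04 over all probes.

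The line difference itself differed between 48 h without LIF and 24 h with LIF at 507 probes (1.6% of those tested), 229 more positive at 48 h (0.722%) and 278 more negative (0.876%). Of the named genes 2 passed, both in the negative direction. Pitpnm2, a phosphatidylinositol transfer protein, read 0.84 and 1.20 in Oct4 VP2 against 0.06 and 0.02 in Oct4 with LIF, and 0.09 and 0.50 against 0.93 and 0.54 at 48 h, a shift of -1.41 ± 0.31 (adjusted p = 0.046). For 4930523C07Rik the shift was -1.75 ± 0.39, at a probe not well above background in Oct4 with LIF. The Oct4 arrays with LIF came from another scan session and carry other labels than the remaining Oct4 arrays, so label and time cannot be told apart. With scan session as a term, which rests on ZHBTc4 alone, 389 probes passed, 175 of them among the 507, and with slide as a random block 294 did. For Oct4 with LIF, leaving out replicate 1 gave 70 probes and leaving out replicate 2 gave 1125. The count was 81 and 130 without replicates 1 and 2 of Oct4 VP2 at 48 h, 100 and 299 without those of Oct4 at 48 h and 312 without replicate 1 of Oct4 VP2 with LIF.

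**Figure D5:**
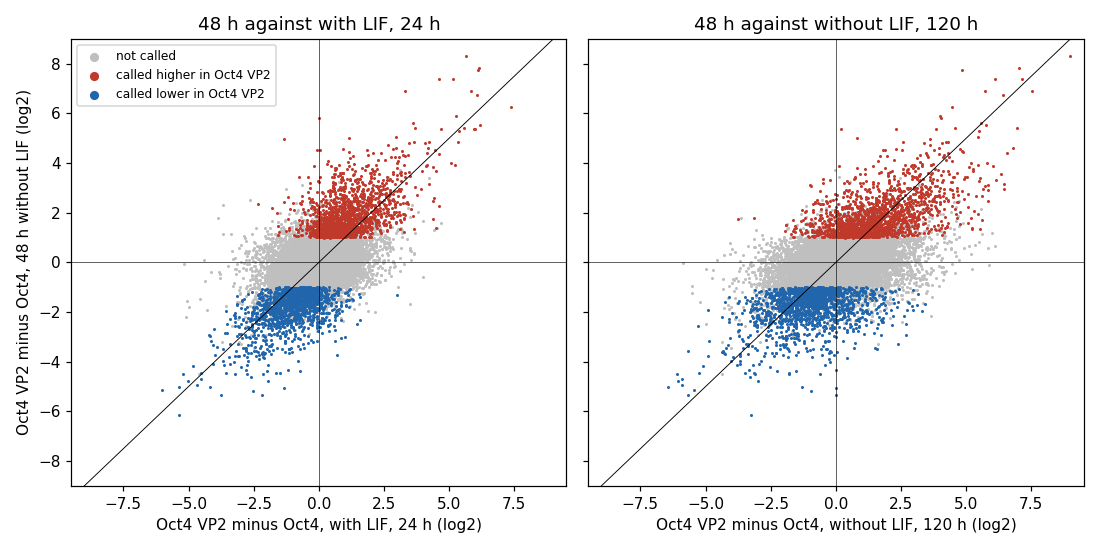
Each point is a probe tested, with the difference Oct4 VP2 minus Oct4 (log2) at 48 h without LIF on both y axes and, on the x axes, the same difference with LIF at 24 h (left) or without LIF at 120 h (right); the diagonal marks equal differences and colours show the call at 48 h. The medians of the probes called higher at 48 h are 0.93 with LIF and 1.37 at 120 h, and those of the probes called lower are -0.96 and -0.99.

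By 120 h without LIF the lines differed more widely, with 3167 probes called higher and 2780 lower in Oct4 VP2 (18.7% of those tested, 9.98% higher and 8.76% lower). The Oct4 VP2 arrays at 120 h lay on slide 2 and the Oct4 arrays on slide 3. Slide and line cannot be told apart there either. Of the 48 h higher list 968 were called higher at 120 h, 58.6% of that list and 30.6% of the 120 h list, and 29 were called lower. Of the lower list 723 were called lower (46.1% and 26.0%), and 81 higher. The median difference at 120 h was 1.37 over the 48 h higher list and -0.99 over the lower list.

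Taking the 3 times together, 403 of the 1653 higher probes were called higher at all 3 and 439 at 48 h alone. Of the 1570 lower probes 309 were called lower at all 3 times and 536 at 48 h alone. A call at 48 h alone does not show a difference between times, which the tests of the change in the line difference address.

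The line difference changed from 48 h to 120 h at 2763 probes (8.71% of those tested), 1525 more positive at 120 h (4.81%) and 1238 more negative (3.9%). Oct4 VP2 at 48 h lay on slide 1 and Oct4 at 120 h on slide 3. Slide 2 held Oct4 at 48 h and Oct4 VP2 at 120 h. Slide and change therefore cannot be told apart. This limit holds for every change from 48 h to 120 h given above and below. With slide as a random block 1668 probes passed, and without replicate 2 of Oct4 at 48 h 1628. Named genes with a change included several that did not differ between the lines at 48 h. Lamb2, a laminin chain of basement membranes, read -3.01 and -3.02 in Oct4 VP2 and -2.30 and -2.96 in Oct4 at 48 h, and -2.19 and -2.50 against -0.44 and -0.42 at 120 h, a change of -1.53 ± 0.27 in the line difference (adjusted p = 0.0053). Bcl11a, a zinc finger repressor of blood and brain, read 2.04 and 1.61 against 1.91 and 2.00 at 48 h, and 1.29 and 0.57 against -0.54 and -0.46 at 120 h, a change of 1.56 ± 0.41 (adjusted p = 0.033). Gm11423 changed by -3.01 ± 0.58 (adjusted p = 0.0084) and Defb36, a defensin peptide, by 3.00 ± 0.68 (adjusted p = 0.017), though neither Oct4 array at 120 h was well above background for Defb36, where the difference between the lines was at least 3.07-fold. The change of Rasef, 2.46 ± 0.58 (adjusted p = 0.019), rests on the substitute values given above.

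Set against ZHBTc4 at 48 h, Oct4 VP2 differed at 1903 higher and 1530 lower probes (10.8% of those tested, 6% and 4.82%). Oct4 differed from ZHBTc4 at 237 higher and 183 lower ones (1.32%, or 0.747% and 0.577%). These comparisons share arrays with the one between Oct4 VP2 and Oct4, so their values are given side by side only. Over the 1653 probes called higher in Oct4 VP2, the median was 1.40 for Oct4 VP2 against ZHBTc4 and -0.30 for Oct4 against ZHBTc4. Over the 1570 called lower these medians were -1.30 and 0.31. The ZHBTc4 arrays at 48 h lay in different scan sessions, and the count for Oct4 against ZHBTc4 moved with each array left out, to 183 and 105 without replicates 1 and 2 of ZHBTc4 and to 225 and 56 without those of Oct4. From the Cy3 channel alone, 385 probes were higher and 463 lower in Oct4 than in ZHBTc4, the reverse of the balance in the ratios.

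The change of each line from LIF to 48 h without it shares arrays with the comparison of the lines as well. Over the 1653 higher probes the median change was 0.12 in Oct4 VP2 and -0.60 in Oct4, and over the 1570 lower probes it was 0.07 in Oct4 VP2 and 0.73 in Oct4. The change in Oct4 spans the 2 scan sessions and the 2 kinds of label.

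Simple sequence features of the called probes were set beside those of all probes tested, without a test of the gaps. Median GC content was 43.3% for the probes called in either direction and 45% for all probes tested. The hexamer AATAAA, searched on the probe's strand only, stood in 9.20% of the probes called higher, 7.77% of those called lower and 7.34% of all. At least 1 of the 3 forward frames was free of stop codons in 78.0% of the higher, 78.5% of the lower and 83.3% of all probes.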

How the data were processed

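Sample RNA (Cy3) and a common mouse reference RNA (Cy5) were hybridised to 18 arrays of 2 colours, 2 per group. Per the file headers, the authors' scanner files were made with Agilent Feature Extraction 9.5.1.1 and give the intensity of each spot per channel, background-subtracted and dye-normalised. The deposited log10 ratio of Cy5 over Cy3 runs as reference over sample, so log2 of the processed Cy3 over the processed Cy5 intensity was taken instead. The deposited value table of 25030 probes is on a log10 scale. Once centred per probe, 100% of its values lay within 0.001 of the log10 ratio, sample over reference, which settles scale and direction, while what was added per probe is not known (column medians between 2.33 and 2.36).

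Control and flagged spots were left out, spots of a probe were averaged, and each array was centred on the median of the tested probes. A mean per group was fitted to the 18 arrays with limma 3.58.1 (R 4.3.3; 9 residual and 2.15 prior degrees of freedom), and comparisons were drawn from that fit. The fit was also run on simulated data with independent noise per probe and array. These held no slide, session or clone effect, so such effects were not covered. A probe was called at an adjusted p below 0.05 (Benjamini-Hochberg, over all probes tested) with a change of 2-fold or more. Arrays came from 5 slides scanned in 2 sessions, with 62.8% to 75.2% of probes well above background, and their number limits the precision. Alternatives covered background correction, normalisation, filters, blocks and each array left out.

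The comparison, the gene lists and the tests were chosen with earlier results of these data known. Single features were named by rule: called, without overlap and well above background in the higher group, up to 15 named probes per direction, the 2 largest unnamed ones per direction, and up to 3 named ones per direction for changes between times. The match of probes to gene starts and the pairs of probes that share sequence were added after seeing the data.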

Additional observations from a re-analysis of the deposited data

Results flagged for a closer look

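The difference between Oct4 VP2 and Oct4 itself differed between conditions, by tests of the change. It differed between 48 h without LIF and 24 h with LIF at 507 probes, and between 120 h and 48 h without LIF at 2763 probes (limma, adjusted p under 0.05 and 2-fold or more). The first comparison spans 2 scan sessions and rests on the Oct4 arrays with the knock-in label. With session as a term 389 probes passed, most of them not among the 507, and with only the arrays compared 0 did. The second spans 3 slides. Oct4 VP2 at 48 h lay on slide 1 and Oct4 at 120 h on slide 3. Slide 2 held Oct4 at 48 h and Oct4 VP2 at 120 h. Slide and this change therefore cannot be told apart. With slide as a random block 1668 probes passed.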

How the results depend on the processing

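Over 15 other settings, the count of 3223 probes between Oct4 VP2 and Oct4 at 48 h stayed within 1.5 times in all but 2, normexp with loess (1938) and the adjusted p alone (5859), and it lay between 2244 and 2515 with each of the 4 arrays left out. Normexp with loess gave 1868 probes for Oct4 VP2 against ZHBTc4 and 238 for Oct4 against ZHBTc4, and the adjusted p alone gave 6539 and 704. The Cy3 channel alone gave 783 probes for the change from LIF to 48 h and 848 for Oct4 against ZHBTc4. Without a filter on dim probes the former was 305. With slide as a random block (correlation 0.12) it was 294, the change from 48 h to 120 h 1668 and Oct4 against ZHBTc4 227. With only the arrays compared, limma called 0 probes for the change from LIF to 48 h (5648 at an unadjusted p under 0.05) and 0 for Oct4 against ZHBTc4 (4985), and with the first scan session alone the latter was 21. The causes were not tested, except that the last settings leave fewer arrays. With an array left out, the change from LIF to 48 h lay between 70 and 1125, that from 48 h to 120 h between 1628 and 2545, Oct4 VP2 against ZHBTc4 between 2372 and 3048, and Oct4 against ZHBTc4 between 56 and 225. A lone array was then taken to vary like the other groups.

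None of the 4 largest probes, the 12 placed and called ones and the 14 probes of the chosen pairs changed direction in the settings run for each; the other probes named were not followed. Same-numbered replicates of the 2 lines did not deviate together at 48 h (r = 0.01), so the numbers do not pair the lines. Across times the same-numbered arrays had r = 0.28 and 0.30 with those at 48 h in Oct4 VP2 (with LIF and at 120 h) and -0.11 and 0.09 in Oct4. A replicate block gave 3268 calls between the lines at 48 h, 493 for the change from LIF to 48 h (422 of them among the 507) and 2801 for that from 48 h to 120 h (2637 among the 2763). The change from LIF to 48 h could not be fitted within the first session, which holds no Oct4 array with LIF. Where neither array of the dimmer group was well above background, folds are lower bounds under the main settings.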
